A study of Mus musculus with 24 samples.

Results

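Chat, Slc18a3, Slc5a7, Ache, Isl1, Mnx1, Prph and Mmp9 are genes of acetylcholine handling and of motor neurons, and they made up 8 of the 46078 genes in each count table. They were chosen by gene symbol for these roles, and each symbol matched 1 Ensembl gene. The 24 libraries were bulk RNA sequencing of cerebellum, cortex and spinal cord from C57BL/6 mice, in 8 groups of 3. GFP-PR28 is green fluorescent protein joined to a proline-arginine dipeptide repeat of the kind translated from expanded C9orf72, and its gene, behind a floxed stop, was inserted at Rosa26. Heterozygotes (labelled OE) were GFP-PR28 flox/+; Thy1-Cre+/-, so that Thy1-driven Cre switched the protein on in neurons. Controls (labelled WT) were GFP-PR28 flox/+; Thy1-Cre-/- and so carried the silent floxed allele. Cerebellum was taken at 2 and at 5 months of age and counted in 1 table, and cortex and spinal cord were taken at 6 months and counted in the other. Library totals ran from 12835400 counts (cerebellum heterozygote 4 at 2 months) to 25490124 counts (spinal cord heterozygote 2), and levels are counts-per-million (CPM) values scaled by TMM factors.

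Cholinergic neurons make acetylcholine from choline and acetyl coenzyme A, load it into synaptic vesicles, release it and recover choline after the transmitter is broken down in the cleft. In the spinal cord the main cholinergic cells are the motor neurons of the ventral horn, whose axons leave in the ventral roots, while in the forebrain the transmitter comes mainly from striatal interneurons and from projection neurons of the basal forebrain. Cortex and cerebellum have few cholinergic cell bodies, and transcripts there can come from sparse interneurons or from cells that carry only some of these genes. Their source in these libraries was not tested.

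Hox genes set the spinal cord libraries apart from the others, and no marker list of cortex or of cerebellum was looked at. The 6 Hox genes of lumbar and sacral cord summed to 141, 188 and 218 CPM in the control spinal cords and 208, 202 and 195 CPM in the heterozygous ones. The same sum was at most 0.113 CPM in any cortex library and 0 in all 12 cerebellum libraries. Hoxc10 was the most abundant of them in spinal cord, with a mean of 88.6 CPM.

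Some libraries stood apart in markers of other cells. In spinal cord, 8 sensory ganglion neuron markers summed to 64.6 CPM in control 2 and 166 CPM in heterozygote 2, against 16.8 to 18.7 CPM in the other 4 libraries. Scn9a was the most abundant, all 8 had a mean of 1 CPM or more over the 6 libraries, and Mrgprd was at 0 outside control 2 (2.02 CPM) and heterozygote 2 (5.26 CPM). Sensory ganglion neurons also express Isl1 and Prph. The 6 Schwann cell markers summed to 590.1, 1527 and 1055 CPM in the controls and 314, 2051 and 2298 CPM in the heterozygotes, so that heterozygote 1 was lowest. Heterozygote 2 alone had high sums of skeletal muscle markers (198 CPM, led by Acta1, against 4.54 to 23.9 CPM elsewhere) and of neutrophil markers (192 CPM, led by S100a9, against 3.89 to 19.9 CPM). In cortex, 12 striatal projection neuron markers, led by Ppp1r1b, summed to 346, 358 and 785 CPM in the controls and 1715, 1049 and 1129.8 CPM in the heterozygotes. None of the 12 was at 0, all had a mean of at least 1 CPM over the 6 cortex libraries, and control 3 had more than the other controls. In cerebellum, control 9 at 5 months had a skeletal muscle sum of 252 CPM, and the other 11 libraries had at most 4.97 CPM. Their part in the results was not tested, and each of the 8 genes tested in a tissue is given with and without library 2 of both spinal cord genotypes, control 3 in cortex and control 9 in cerebellum.

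**Figure D1:**
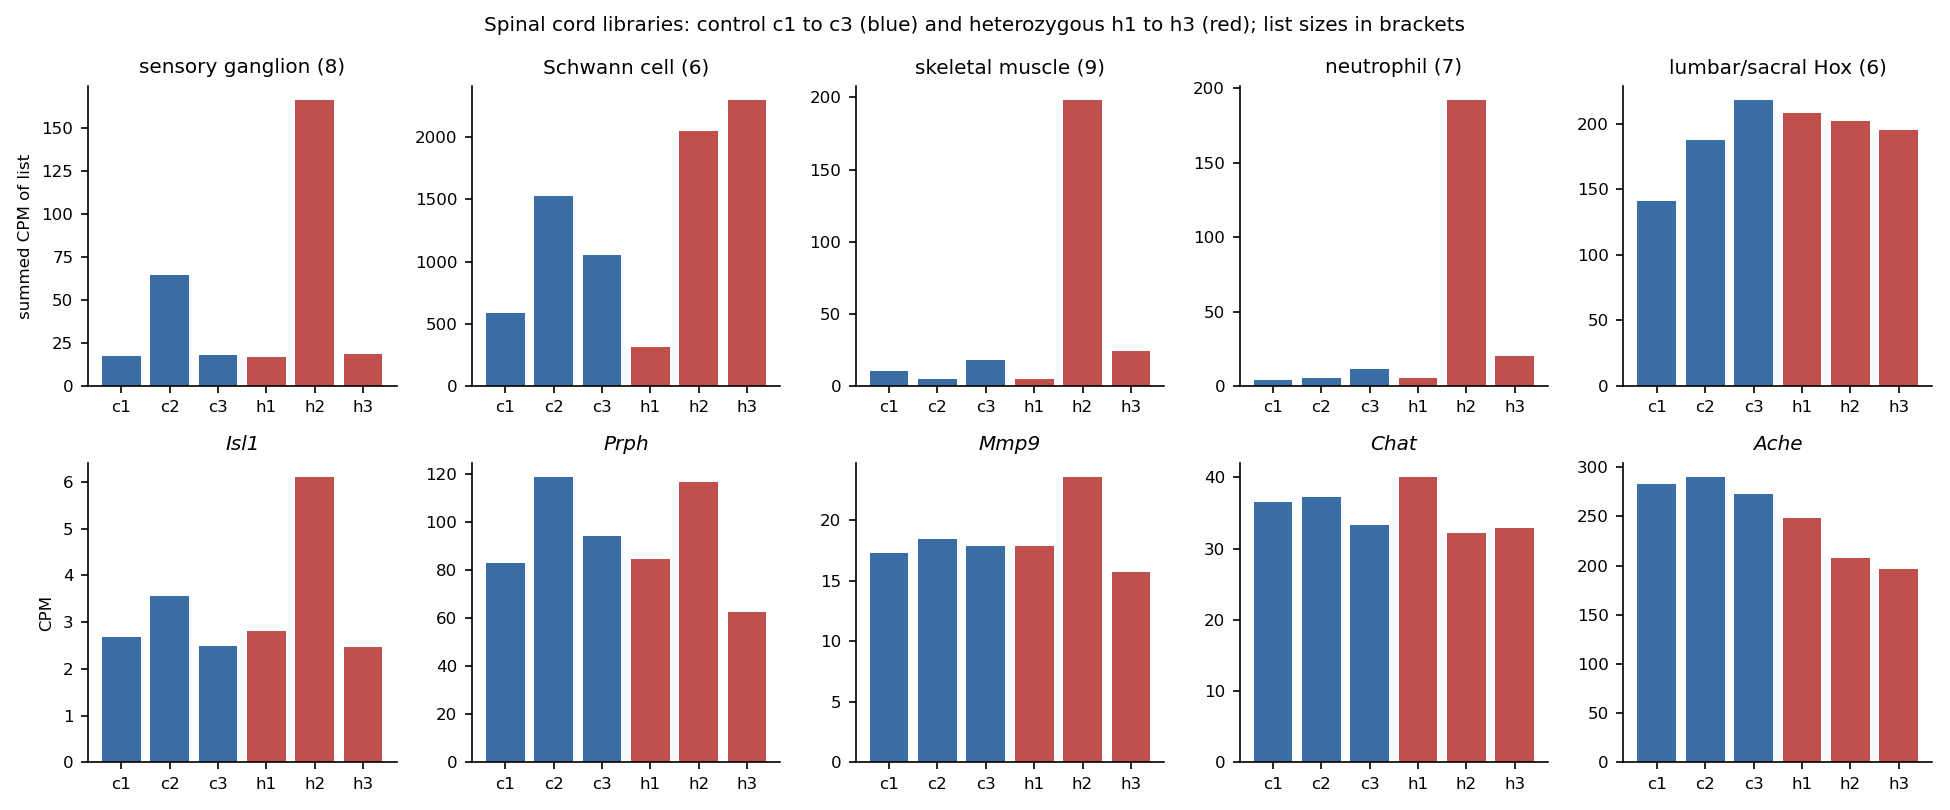
Bars give the summed CPM of 5 marker lists (top) and the CPM of 5 genes (bottom) in each spinal cord library, with controls c1 to c3 in blue and heterozygotes h1 to h3 in red. Heterozygote 2 reached 166 CPM of sensory ganglion neuron markers and 192 CPM of neutrophil markers, and it was highest for Isl1 and Mmp9.

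The first comparison asked where the genes were expressed, in control spinal cord against control cortex and then, as levels only, in cerebellum. All 8 were far more abundant in spinal cord, and in cortex and cerebellum Ache was the one gene of the 8 with a high level. Whether the spinal cord and cortex libraries came from the same mice is not given in the sources used here. Because motor neuron genes were chosen, the tissue difference is a check of the choice more than a result. Levels between genes are compared as CPM per kb of exon.

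Chat encodes choline acetyltransferase, the enzyme that makes acetylcholine, and Slc18a3 encodes the vesicular acetylcholine transporter that fills synaptic vesicles. Chat (ENSMUSG00000021919) lies at chr14:32408203-32465989 on the minus strand of GRCm38, and the single exon of Slc18a3 (ENSMUSG00000100241, chr14:32462438-32464850) lies on the same strand inside Chat, with no exon shared. Reads of unspliced Chat RNA over that exon cannot be told from Slc18a3. The RefSeq starts of both genes are 1059 bases apart. Promoters are printed for Chat, Slc18a3, Slc5a7 and Isl1, the genes that were higher in every heterozygous cortex than in every control one, as the part of the 250 bases before the RefSeq start that no GENCODE exon covers. The table held 7 of the 8 genes, without Mmp9. Capitals mark TGACG or its reverse complement CGTCA, the half-site of the cyclic AMP response element, and TAAT or ATTA, the core bound by homeodomain proteins. The first was in 17.8% and the second in 54.9% of 32851 promoters of 250 bases. The Chat piece (chr14:32465990-32466159, minus strand, GRCm38.p6, 170 bases ending 80 bases before the start) held 1 CGTCA, and the Slc18a3 piece (chr14:32464851-32465041, minus strand, GRCm38.p6, 191 bases) held 1 of each motif.
Chat: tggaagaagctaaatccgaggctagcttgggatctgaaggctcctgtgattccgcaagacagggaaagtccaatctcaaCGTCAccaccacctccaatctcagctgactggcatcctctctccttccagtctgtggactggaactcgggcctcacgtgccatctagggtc
Slc18a3: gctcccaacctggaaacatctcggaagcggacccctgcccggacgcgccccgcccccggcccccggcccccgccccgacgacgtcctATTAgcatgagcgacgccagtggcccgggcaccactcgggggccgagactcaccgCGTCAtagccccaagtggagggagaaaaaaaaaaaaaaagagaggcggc

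Slc5a7 encodes the high-affinity choline transporter that returns choline to the nerve ending, and Isl1 encodes a LIM homeodomain factor of motor neurons, sensory neurons and striatal cholinergic interneurons. Slc5a7 (ENSMUSG00000023945) lies at chr17:54273590-54299034 and Isl1 (ENSMUSG00000042258) at chr13:116298281-116309689, both on the minus strand of GRCm38. The Slc5a7 promoter (chr17:54299035-54299284, minus strand, GRCm38.p6) held neither motif, and the Isl1 piece (chr13:116309690-116309938, minus strand, GRCm38.p6) held 2 of each. The 4 promoters therefore had no searched motif in common, and a match is a description of letters only.
Slc5a7: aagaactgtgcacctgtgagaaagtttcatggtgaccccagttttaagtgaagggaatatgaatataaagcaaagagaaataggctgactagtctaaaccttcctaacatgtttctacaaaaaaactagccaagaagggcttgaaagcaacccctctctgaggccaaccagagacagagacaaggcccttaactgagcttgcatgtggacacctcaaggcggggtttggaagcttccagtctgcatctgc
Isl1: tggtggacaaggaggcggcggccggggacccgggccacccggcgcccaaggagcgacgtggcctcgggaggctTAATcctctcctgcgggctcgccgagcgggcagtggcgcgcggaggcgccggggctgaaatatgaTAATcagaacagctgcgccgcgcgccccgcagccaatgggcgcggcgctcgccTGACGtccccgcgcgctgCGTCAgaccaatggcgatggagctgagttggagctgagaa

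The other 4 genes are Ache, Mnx1, Prph and Mmp9. Ache (ENSMUSG00000023328, chr5:137287519-137294466, plus strand) encodes acetylcholinesterase, which breaks acetylcholine down, and 98 bases of its exons overlap Gm42456 on the other strand. Mnx1 (ENSMUSG00000001566, chr5:29473034-29478470, minus strand) encodes a homeodomain factor of motor neurons. Prph (ENSMUSG00000023484, chr15:99055174-99058978, plus strand) encodes peripherin, an intermediate filament of neurons with peripheral axons. Mmp9 (ENSMUSG00000017737, chr2:164940780-164955850, plus strand) encodes a secreted metalloproteinase that marks fast motor neurons and is also made by other cells.

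In control spinal cord, Ache had the highest level per length, 61.0 ± 1.90 CPM per kb (mean ± SD, n = 3), followed by Prph at 49.4 ± 9.16 CPM per kb. Slc18a3 (32.4 ± 1.97 CPM per kb), Slc5a7 (16.2 ± 0.989 CPM per kb) and Chat (7.58 ± 0.443 CPM per kb) came next, so that the transporter genes were above the gene of the synthetic enzyme. Mmp9 (5.06 ± 0.162 CPM per kb), Mnx1 (1.43 ± 0.221 CPM per kb) and Isl1 (0.735 ± 0.143 CPM per kb) were lowest. The ranges of neighbours in this order met for Ache and Prph only, whose libraries ran from 59.0 to 62.8 and from 41.5 to 59.4 CPM per kb.

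Against control cortex, all 8 genes were called higher in spinal cord, where 20.8% of all 17416 genes tested were (41.3% in either direction). A gene was called when its edgeR adjusted p was below 0.05 and its log2 fold change passed 0.2 in size. Slc18a3 was 99.8-fold higher, Prph 92.8-fold, Slc5a7 65.3-fold, Chat 40.2-fold, Mmp9 8.50-fold, Isl1 6.10-fold and Ache 3.58-fold higher. The weakest of the calls was that of Isl1 (log2 fold change 2.61, SE 0.58, 95% confidence interval 1.29 to 3.93, adjusted p 0.00649; range over 11 alternative fits 7.29e-05 to 0.0329). Mnx1 had 209 counts in the control spinal cords and 1 count in the control cortices, a ratio of 199 per total count with an exact 95% interval of 35.3 to 7899. Such count intervals, and the 3 counts taken as the limit for a count of 0, cover counting error only. All 8 calls held in all 11 alternative fits of the comparison, while the sizes moved. Without control cortex 3 the log2 fold change was 3.90 for Isl1, against 2.61 with it, and 7.30 for Slc18a3, against 6.64. With 1 library left out, Isl1 ran from 2.13 to 3.90, Slc18a3 from 6.25 to 7.30, Prph from 6.13 to 7.15, Chat from 5.02 to 5.89 and Mnx1 from 6.59 to 9.03.

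The ratio of Slc18a3 to Chat counts differed between the tissues. It was 2.02, 2.24 and 2.33 in the control spinal cords and 1.94, 1.74 and 2.02 in the heterozygous ones. In cortex it was 0.571, 0.933 and 0.929 in the controls and 0.375, 0.511 and 0.656 in the heterozygotes. No cortex library reached 1 Slc18a3 count per Chat count, although the control cortex values rest on as few as 4 and 7 counts.

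In cerebellum, Slc18a3 had 0 counts among 179359290 in the 12 libraries, which allows up to 0.0167 CPM. Chat had 7 counts, none in the 6 controls and 1 or 2 in 5 of the 6 heterozygotes, and a count of 0 in a single library allows up to 0.184 to 0.234 CPM. Mnx1 had 1 count, Isl1 8, Prph 24 and Slc5a7 58 counts over the 12 libraries, too few to pass the filter on low counts. Ache was abundant, with 67.7 to 79.4 CPM in every library, close to the 73.0 to 82.6 CPM of cortex, and Mmp9 had 440 counts. Levels in cerebellum came from another table, other ages and other mice, and were not tested against the other tissues.

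**Figure D2:**
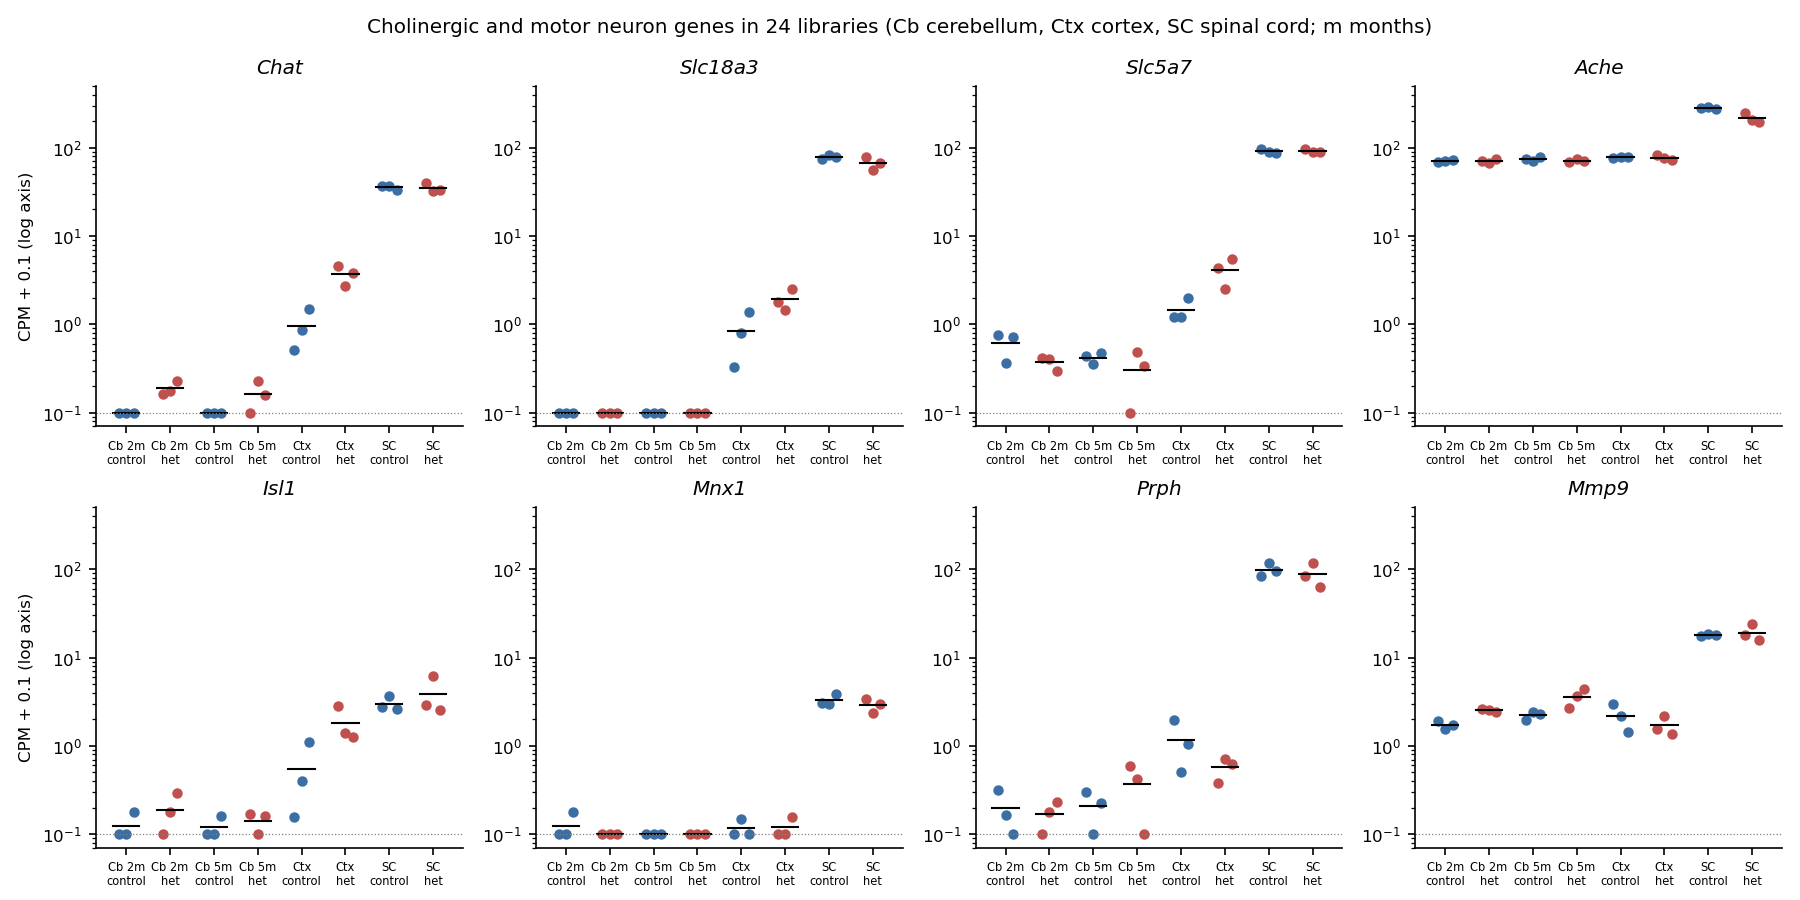
CPM plus 0.1 of each of the 8 genes in all 24 libraries on a log axis (blue, control; red, heterozygous; black line, group mean), with libraries at 0 counts on the dotted line. Ache lies at 67.7 CPM or more in every library, and all 8 genes have their highest group means in spinal cord.

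Over the 24 libraries, the genes whose log2(CPM + 1) followed that of Chat most closely were Ecel1 (Pearson r 0.994), Slc5a7 (0.993), Gpr149 (0.992), Mafa (0.990) and Slc18a3 (0.989), among 15775 genes. These values mostly restate the tissue difference. After each group mean was subtracted, the closest genes were Npc1 (0.877), Pde8a (0.862), Plekhh1 (0.859), Sv2c (0.858) and Pacs2 (0.846). Slc18a3 then ranked 24 with r 0.798 and Slc5a7 ranked 145 with r 0.688, while Prph (r -0.321) and Mmp9 (r -0.597) varied against Chat within groups. Chat had 0 to 2 counts in each cerebellum library and 7 to 80 in each cortex library, so its deviations there rest on few counts. The libraries share tables and depth, and these correlations with n = 24 are descriptions.

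The second comparison asked whether the genes differed between heterozygotes and controls in spinal cord, where motor neurons lie. Chat, Slc5a7 and Mmp9 had nearly the same means in both genotypes. Ache alone separated the genotypes, with lower values in all 3 heterozygotes, and it missed the threshold over all genes. Isl1 and Prph were highest in library 2 of each genotype. In bulk tissue, fewer cells of a type and less RNA per cell cannot be told apart.

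Chat had 36.5, 37.2 and 33.3 CPM in the control spinal cords and 40.1, 32.2 and 32.9 CPM in the heterozygous ones. The groups overlapped, with heterozygote 1 highest of all 6. The log2 fold change was -0.03 (SE 0.10, 95% confidence interval -0.25 to 0.18, adjusted p 0.973). Without heterozygote 2 the value was 0.03, without heterozygote 3 it was 0.01, and without library 2 of both genotypes it was 0.05.

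Slc18a3 had 73.7, 83.1 and 77.5 CPM in the controls and 77.8, 55.9 and 66.4 CPM in the heterozygotes. Heterozygotes 2 and 3 were below every control, and heterozygote 1 was among the controls. This was a log2 fold change of -0.23 (95% confidence interval -0.47 to 0.01, p 0.0542, adjusted p 0.772). Without heterozygote 1 it was -0.36 and was called (adjusted p 0.0248, range over 13 alternatives 0.0248 to 1.00), without heterozygote 2 it was -0.12, and without library 2 of both genotypes it was -0.08.

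Slc5a7 had 97.8, 90.4 and 86.9 CPM in the controls and 97.6, 88.3 and 90.0 CPM in the heterozygotes, so the genotypes spanned nearly the same range. Its log2 fold change was 0.00, with a 95% confidence interval of -0.17 to 0.17 and an adjusted p of 0.999. Leaving out a single library gave values from -0.05 to 0.06, and the sign turned without control 1 (0.06), heterozygote 2 (0.03) or heterozygote 3 (0.02). Without library 2 of both genotypes the value was 0.01.

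Ache had 283, 290.2 and 273 CPM in the control spinal cords and 248, 208 and 197 CPM in the heterozygous ones. Every heterozygote was below every control, and heterozygote 1 came nearest to them. The means were 282 ± 8.77 and 218 ± 27.0 CPM (SD, n = 3), a 0.770-fold level. The log2 fold change was -0.38 (SE 0.09, 95% confidence interval -0.57 to -0.18, p 0.00108), and its adjusted p over 17522 genes was 0.228. Over 13 alternatives the log2 fold change stayed between -0.48 and -0.31, while the adjusted p ran from 0.00114 to 1.000. Ache was called in 3 of them, with DESeq2 (adjusted p 0.0131), with no filter on low counts (0.00248) and without heterozygote 1 (-0.48, 0.00114). Without heterozygote 2 it was -0.34 and without library 2 of both genotypes it was -0.33. The groups did not overlap for 1 of the 8 genes, and they did not overlap for 11.4% of all genes tested. Exact permutation of 3 against 3 libraries cannot give a p under 0.1, so the model across genes is the test used.

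Prima1, which encodes the anchor that holds acetylcholinesterase at the neuronal membrane, had a similar pattern. It had 18.7, 20.3 and 18.0 CPM in the controls and 15.4, 15.2 and 15.4 CPM in the heterozygotes, again with no overlap. Its log2 fold change was -0.31 (95% confidence interval -0.52 to -0.10, p 0.00754, adjusted p 0.548), and it was -0.31 without heterozygote 2 and -0.26 without library 2 of both genotypes. Prima1 was picked after its values were seen, from 9 genes of choline and acetylcholine handling with a median of -0.05. Of the 9, 2 were lower and 0 higher without overlap, where 11.4% of all genes tested did not overlap. Colq and Bche of that list overlapped. The oligodendrocyte markers, led by Mbp, summed to 24105, 23671 and 23661 CPM in the controls and 23115, 18979 and 19059 CPM in the heterozygotes, and the neurofilament and axon protein genes, led by Nefm, summed to 6618, 6978 and 6714 CPM and to 7144, 5701 and 5244 CPM. None of the 8 oligodendrocyte and none of the 6 neurofilament and axon protein genes was called with edgeR or was at 0, but without heterozygote 1 in spinal cord 6 and 3 of them were called lower, where 643 genes were called in all. The microglia sum was higher in every heterozygote (649.6 to 776 CPM) than in every control (501 to 529 CPM). Their part in the result was not tested.

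Isl1 had 2.69, 3.55 and 2.49 CPM in the controls and 2.82, 6.11 and 2.47 CPM in the heterozygotes. Library 2 was highest in each genotype, and the groups overlapped. Its log2 fold change was 0.40 (95% confidence interval -0.36 to 1.15, adjusted p 0.887). It was -0.14 without heterozygote 2 and 0.02 without library 2 of both genotypes, the libraries with the highest sensory ganglion marker sums. Isl2, a related factor, was likewise highest in library 2, with 8.69 CPM in the control and 12.4 CPM in the heterozygote.

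Mnx1 had 2.97, 2.88 and 3.78 CPM in the controls and 3.33, 2.27 and 2.90 CPM in the heterozygotes, with overlap. Its log2 fold change was -0.19 (95% confidence interval -0.67 to 0.28, adjusted p 0.921), and it was -0.12 without library 2 of both genotypes and ran from -0.32 (without heterozygote 1) to -0.05 (without heterozygote 2) with 1 library left out. Of 7 other motor neuron transcription factors tested, 5 were above 0, and the genotypes did not overlap for 1 in each direction, where they did not for 11.4% of all genes tested. Lhx3 had 2.69, 2.98 and 3.07 CPM in the controls and 2.36, 2.42 and 2.52 CPM in the heterozygotes, with a log2 fold change of -0.26 (adjusted p 0.869). Esrrb had 12.0, 13.4 and 12.9 CPM in the controls and 14.7, 14.1 and 13.7 CPM in the heterozygotes, with a log2 fold change of 0.15 (adjusted p 0.864). Without heterozygote 2 the values were -0.26 for Lhx3 and 0.15 for Esrrb.

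Prph had 83.0, 119 and 94.4 CPM in the controls and 84.8, 117 and 62.5 CPM in the heterozygotes. Library 2 was highest in each genotype and heterozygote 3 was lowest, with overlap. Against the controls the log2 fold change was -0.16 (95% confidence interval -0.89 to 0.57, adjusted p 0.948). It was 0.04 without heterozygote 3, -0.43 without heterozygote 2 and -0.28 without library 2 of both genotypes.

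Mmp9 had 17.3, 18.5 and 17.9 CPM in the controls and 17.9, 23.6 and 15.7 CPM in the heterozygotes. Heterozygote 2, the library with 192 CPM of neutrophil markers, was highest, and neutrophils make Mmp9. Among the spinal cords it also had the highest skeletal muscle (198 CPM) and sensory ganglion (166 CPM) marker sums. The part of any of these cells in the Mmp9 values was not tested. Across all 6 libraries the log2 fold change was 0.09 (95% confidence interval -0.21 to 0.39, adjusted p 0.942), and it was -0.10 without heterozygote 2 and -0.07 without library 2 of both genotypes.

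None of the 8 genes was called in spinal cord with edgeR, where 19 of 17522 genes tested were (0.108%) and 1135 had an unadjusted p under 0.05. With DESeq2, 73 genes were called, Ache among them. The median log2 fold change of the 8 was -0.10, beside 0.01 over all genes tested. Among other genes of these roles, none was called of 9 for choline and acetylcholine handling (median -0.05), 11 tested of 16 nicotinic receptor subunits (0.15), 5 muscarinic receptors (0.07) or 7 tested of 10 motor neuron transcription factors (0.09). The same held for 15 motor neuron subtype and effector genes (0.09), 10 genes of motor neuron injury (0.06) and 7 pan-neuronal genes (-0.10). Medians do not show single genes. Of the injury genes, 1 was higher and 1 was lower without overlap. The lower was Sox11, with 8.30, 7.44 and 7.92 CPM in the controls and 7.30, 7.04 and 7.34 CPM in the heterozygotes. Atf3 of the injury genes had 1.90, 1.87 and 1.07 CPM in the controls and 2.30, 5.26 and 3.24 CPM in the heterozygotes, without overlap (1.17, 95% confidence interval 0.44 to 1.89, adjusted p 0.472). It was called in 2 of 13 alternatives (adjusted p 0.00263 to 1.000), with no filter and without heterozygote 1, and was 0.79 without heterozygote 2 and 0.90 without library 2 of both genotypes. Without heterozygote 1, where 399 genes were called higher and 244 lower, 2 more genes of these lists were called, both lower. They were Chodl of the subtype and effector genes (-0.41, adjusted p 0.0189) and the pan-neuronal gene Tubb3 (-0.32, 0.0336). Without heterozygote 2 none of the genes of these lists or of the 8 was called, and the medians lay between -0.11 and 0.09.

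**Figure D3:**
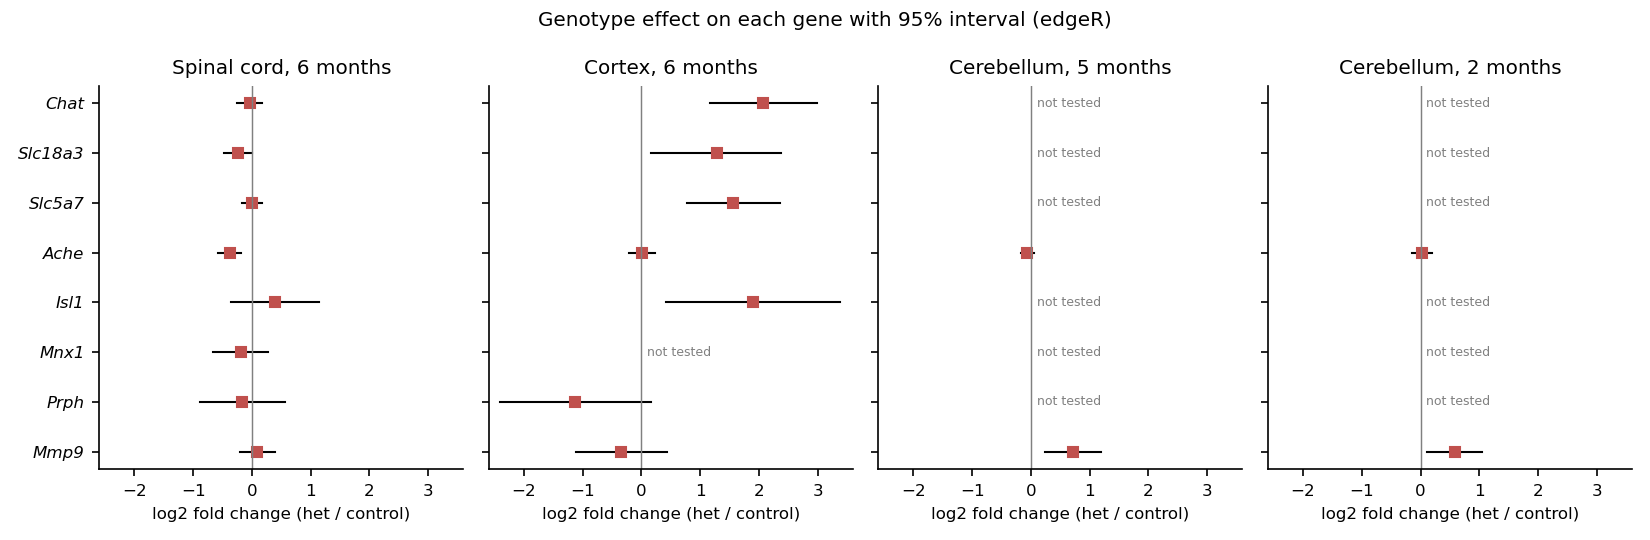
Squares give the log2 fold change of heterozygotes against controls for each gene and lines its 95% confidence interval from edgeR, in spinal cord, cortex and cerebellum at both ages. In cortex Chat, Slc5a7, Isl1 and Slc18a3 lie above 0 with intervals that exclude it, and in spinal cord Ache lies below 0 at -0.38.

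The third comparison asked the same in cortex, where the levels of all but Ache were low. Chat, Slc18a3, Slc5a7 and Isl1 were higher in every heterozygote than in every control. Their counts were small, and none passed the threshold with edgeR. The heterozygous cortices also held more of the striatal markers, and of these 4 genes Chat alone put the 6 libraries in the order of the striatal sum.

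Chat had 0.408, 0.754 and 1.39 CPM in the control cortices and 4.51, 2.63 and 3.70 CPM in the heterozygous ones, from 7, 15 and 28 and from 80, 47 and 64 counts. The lowest heterozygote was above the highest control, which was control 3. The heterozygous mean was 4.21-fold the control mean by the fit, a log2 fold change of 2.07 (SE 0.40, 95% confidence interval 1.17 to 2.98, p 4.85e-04, adjusted p 0.190). Over 12 alternatives the log2 fold change ran from 1.77 to 2.62 and the adjusted p from 0.00169 to 0.812. Chat was called in 5 of them, with DESeq2 (0.00169), with no filter (0.00182), with all 12 libraries of the table in 1 fit (0.0112), without control 1 (1.77, 0.0291) and without control 3 (2.62, 0.0469). Even in the heterozygous cortices, Chat stood at 0.560 to 0.959 CPM per kb, against 7.58 CPM per kb in control spinal cord.

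Slc18a3 had 0.233, 0.704 and 1.29 CPM in the controls and 1.69, 1.34 and 2.43 CPM in the heterozygotes, from 4, 14 and 26 and from 30, 24 and 42 counts. The groups came close, with control 3 at 1.29 and heterozygote 2 at 1.34 CPM. The log2 fold change was 1.28 (95% confidence interval 0.17 to 2.38, p 0.0282, adjusted p 0.402), and it was 1.93 without control 3 and 0.88 without control 1.

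Slc5a7 had 1.11, 1.11 and 1.89 CPM in the controls and 4.28, 2.41 and 5.38 CPM in the heterozygotes. All heterozygotes were above control 3, the highest control. Slc5a7 had a log2 fold change of 1.56 (2.95-fold, 95% confidence interval 0.77 to 2.36, p 0.00147, adjusted p 0.247), and 1.87 without control 3. Slc5a7 was 1.44 without control 1 and 1.30 without heterozygote 3. It was called in 3 of 12 alternatives, with DESeq2 (0.0189), with no filter (0.0106) and with all 12 libraries in 1 fit (0.0283), and the adjusted p ran from 0.0106 to 0.812 over all of them.

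Isl1 had 0.0583, 0.302 and 0.993 CPM in the controls and 2.76, 1.29 and 1.16 CPM in the heterozygotes, with 1, 6 and 20 and with 49, 23 and 20 counts. The controls spread widely, and control 3 and heterozygote 3 had the same raw count. Isl1 had a log2 fold change of 1.90 (3.74-fold, 95% confidence interval 0.42 to 3.38, p 0.0170, adjusted p 0.380), 3.18 without control 3, 1.43 without control 1 and 1.41 without heterozygote 1.

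The other genes gave no such separation. Ache had 75.7, 78.3 and 78.6 CPM in the controls and 82.6, 75.7 and 73.0 CPM in the heterozygotes, a log2 fold change of 0.01 with a 95% confidence interval of -0.21 to 0.23. Its sign turned without control 1 (-0.01) or heterozygote 1 (-0.04), and it was 0.02 without control 3. Prph had 1.87, 0.402 and 0.943 CPM in the controls and 0.282, 0.616 and 0.521 CPM in the heterozygotes, with overlap and an interval of -2.41 to 0.16 around -1.13, or -1.21 without control 3 and from -1.53 (without control 2) to -0.48 (without control 1) with 1 library left out. Mmp9 overlapped too, at 1.34 to 2.86 CPM in the controls and 1.27 to 2.07 CPM in the heterozygotes, with a log2 fold change of -0.35, or -0.59 without control 3 and -0.06 without control 1. Mnx1 had 1 count in each genotype and did not pass the filter on low counts.

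With edgeR, none of the 7 genes tested was called in cortex, where 6 of 16744 genes were (0.0358%) and 1929 had an unadjusted p under 0.05, and DESeq2 called 135 genes. The groups did not overlap for 4 of the 7, against 20.7% of all genes tested. The median log2 fold change of the 7 was 1.28, beside 0.00 over all genes tested. The other genes of acetylcholine handling (9 tested, median 0.03), the nicotinic receptor subunits (9 tested, 0.04), the muscarinic receptors (4 tested, 0.04), the motor neuron subtype and effector genes (12 tested, -0.05) and the genes of motor neuron injury (8 tested, 0.08) had medians near that of all genes and no call, while single genes differed more. Chrnb3 (-1.50) had 3.50, 4.42 and 2.98 CPM in the controls and 0.563, 2.07 and 1.16 CPM in the heterozygotes. Among the 9 nicotinic subunits tested it was 1 of 2 lower without overlap, and it was called in 1 of 12 alternatives (adjusted p 0.0344 to 0.812). Colq (1.13) overlapped, and Htr1d (1.19) was higher without overlap. In the list of motor neuron subtype and effector genes, which holds Htr1d, 1 gene was higher and 1 was lower without overlap. Of the injury genes, 2 were higher and 1 was lower without overlap. Sox11 had 9.16, 8.80 and 9.98 CPM in the controls and 15.8, 14.3 and 18.2 CPM in the heterozygotes (0.81, adjusted p 0.170, called in 4 of 12 alternatives, 0.00557 to 0.812). Ecel1, the gene most like Chat over all libraries, had 1.40, 1.46 and 5.16 CPM in the controls and 11.0, 7.17 and 7.75 CPM in the heterozygotes (1.70, adjusted p 0.303, called in 2, 0.00902 to 0.812). Also, all 4 motor neuron transcription factors tested were above 0 (median 0.20), with none called and 1 without overlap.

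All 12 striatal markers were higher in every heterozygous cortex than in every control one, with a median log2 fold change of 1.86, and none was called with edgeR. Without control 3 in cortex, 11 of the 12 were called, among 39 of 17088 genes, and the median was 2.66. With DESeq2, Penk (1.85, adjusted p 0.0101) and Ppp1r1b (1.00, 0.00719) were called. Penk was also called in edgeR with all 12 libraries of the table in 1 fit (adjusted p 0.0339). Ppp1r1b, the most abundant, had 169, 146 and 287 CPM in the controls and 511, 355 and 327 CPM in the heterozygotes. Adora2a had 3.73, 5.18 and 23.4 CPM in the controls and 56.7, 33.4 and 34.5 CPM in the heterozygotes, and in both genes control 3 was the highest control, as it was for Chat. Of 6 forebrain cholinergic neuron genes, led by Slc17a8, 4 were tested, 3 of them above 0, and none was called (median 1.20). Slc17a8 overlapped, with 5.42, 4.12 and 4.72 CPM in the controls and 6.87, 4.14 and 5.84 CPM in the heterozygotes. Without control 3 in cortex, 1 of 5 tested was called. The forebrain list summed to 8.75, 8.14 and 9.83 CPM in the controls and 13.6, 10.3 and 10.9 CPM in the heterozygotes. Other sums separated the genotypes the other way. Pan-neuronal genes, led by Snap25, summed to 9568, 9539 and 8800.4 CPM in the controls and 8180.2, 8204 and 7973 CPM in the heterozygotes. Astrocyte markers, led by Slc1a2, summed to 3301, 3702 and 3763 CPM and to 3072, 3011 and 3159.7 CPM, and microglia markers to 645, 524 and 569 CPM and to 483, 469 and 470.5 CPM. None of the 7 pan-neuronal genes, 7 astrocyte markers or 14 microglia markers was called with edgeR, and none was at 0. The pan-neuronal gene Tubb3 was called lower in 3 of 12 alternatives (adjusted p 0.0102 to 0.812). The astrocyte marker Aldh1l1 was called lower with all 12 libraries in 1 fit (-0.44, adjusted p 0.0437) and without control 1 (-0.39, 0.0379). The part of any of these lists in the Chat, Slc18a3, Slc5a7 and Isl1 values was not tested.

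**Figure D4:**
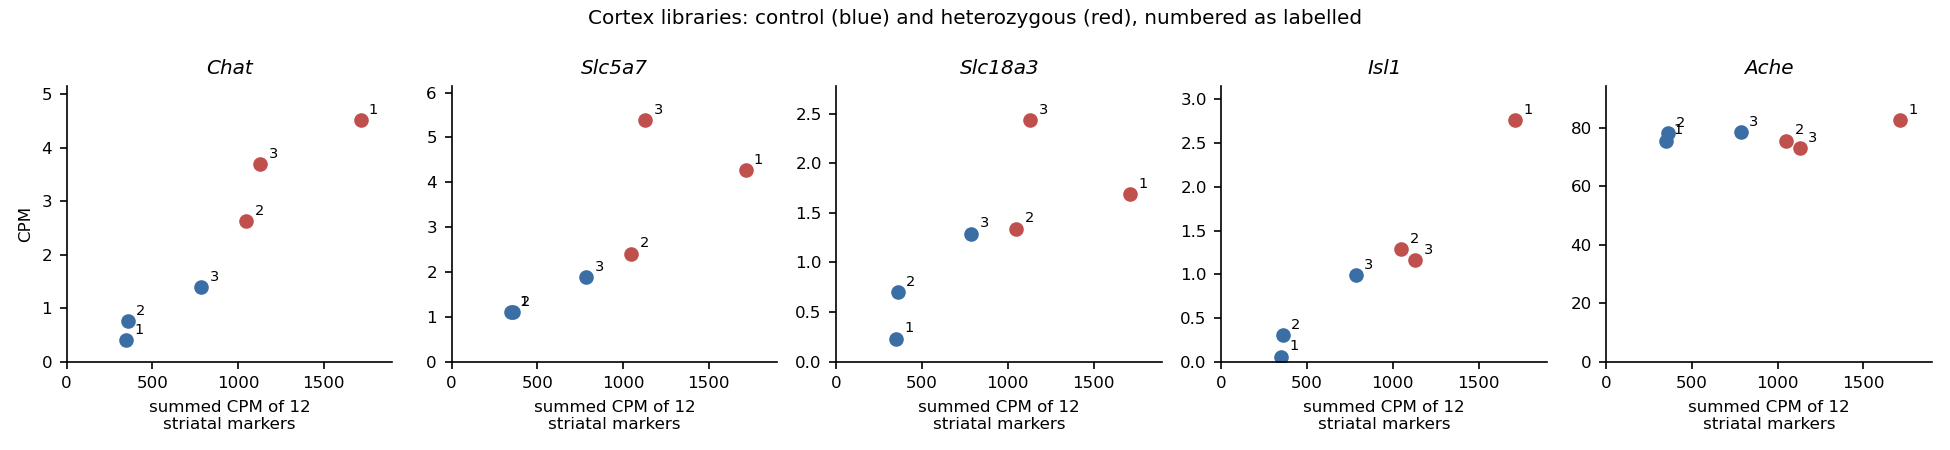
CPM of Chat, Slc5a7, Slc18a3, Isl1 and Ache in each of the 6 cortex libraries against the summed CPM of the 12 striatal markers (blue, control; red, heterozygous; numbers are the library numbers). Control 3, with a sum of 785 CPM, lies between the other controls and the heterozygotes on the horizontal axis.

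The next comparison asked whether the genotype effect differed between spinal cord and cortex, by the interaction term of a fit to all 12 libraries. Chat gave the clearest difference, since its values were level in spinal cord and higher in the heterozygous cortices. Slc5a7, Slc18a3 and Isl1 had the same sign. None of the 8 passed the threshold with edgeR (adjusted p under 0.05), where 3 of 18241 genes did (0.0164%), 1133 had an unadjusted p under 0.05 and DESeq2 called 49.

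For Chat the effect in spinal cord minus that in cortex was -2.09 on the log2 scale (SE 0.36, 95% confidence interval -2.87 to -1.32, p 4.87e-05, adjusted p 0.0808). It was called in 5 of 16 alternatives, with DESeq2 (2.30e-06), with no filter (0.0119), without control cortex 1 (-1.77, 0.0463), without control cortex 3 (-2.64, 0.00507) and without heterozygous spinal cord 1 (-2.22, 0.0445), and its adjusted p ranged from 2.30e-06 to 0.347. For Slc5a7 the difference was -1.55 (95% confidence interval -2.24 to -0.87, adjusted p 0.181), called with DESeq2 (3.84e-04) and without control cortex 3 (-1.86, 0.0472) within a range of 3.84e-04 to 0.548. For Slc18a3 it was -1.49 (95% confidence interval -2.43 to -0.55, adjusted p 0.502), called with DESeq2 (0.0178) within a range of 0.0178 to 0.932, and it was -1.08 without control cortex 1 and -2.13 without control cortex 3. These calls rest on cortex counts of at most 93 in a library.

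For Isl1 the difference was -1.51, with an interval of -3.27 to 0.25, and it ran from -0.99 (without heterozygous cortex 1) to -2.78 (without control cortex 3) with 1 library left out. For Ache it was -0.38, with an interval of -0.67 to -0.09 (p 0.0133, adjusted p 0.641). The lower Ache of the heterozygous spinal cords was thus not shown to differ from the Ache effect in cortex. Prph (0.95, or 0.36 to 1.35 with 1 library left out) and Mmp9 (0.43, or 0.18 to 0.68) had positive differences with intervals that spanned 0. Mnx1, with 1 count per genotype in cortex, had an interval of -3.73 to 3.15 around -0.29, and its sign turned without control cortex 1 (0.13), control cortex 3 (0.21) or heterozygous cortex 3 (1.76).

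The last comparisons asked about genotype in cerebellum at each age, where only Ache and Mmp9 had enough counts to pass the filter. Ache was level between the genotypes. Mmp9 was higher in each heterozygote than in each control of its age, at both ages, and the single-age tests did not pass the threshold.

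At 2 months Ache had 68.0, 70.0 and 72.8 CPM in the controls and 70.2, 67.7 and 75.3 CPM in the heterozygotes, with overlap and a log2 fold change of 0.03 (95% confidence interval -0.14 to 0.20). It was 0.00 without control 1 and -0.01 without heterozygote 6. At 5 months Ache had 73.8, 70.6 and 79.4 CPM in the controls and 69.5, 74.4 and 70.0 CPM in the heterozygotes, with a log2 fold change of -0.06 (95% confidence interval -0.17 to 0.06), or -0.09 without control 9. In spinal cord the value was -0.38 (95% confidence interval -0.57 to -0.18), and the Ache effect was not tested between cerebellum and spinal cord.

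At 2 months Mmp9 had 1.83, 1.47 and 1.61 CPM in the controls and 2.52, 2.45 and 2.33 CPM in the heterozygotes. At 5 months it had 1.89, 2.35 and 2.17 CPM in the controls and 2.58, 3.56 and 4.26 CPM in the heterozygotes. The genotypes did not overlap at either age, and neither did they for 14.0% of genes tested at 2 months and 25.1% at 5 months. The log2 fold change was 0.58 at 2 months (95% confidence interval 0.11 to 1.05, p 0.0214, adjusted p 0.855). At 5 months it was 0.71 (1.64-fold, SE 0.23, 95% confidence interval 0.24 to 1.19, p 0.00539, adjusted p 0.0681). At 5 months it was called with no filter (0.0463) and without heterozygote 8 (0.88, 0.0211), and the adjusted p ranged from 0.0211 to 0.285 over 11 alternatives. Without control 9, the library with the muscle markers, it was 0.78 (0.121), and without heterozygote 12 it was 0.53 (0.285).

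In a fit to both ages with age as a covariate, chosen after seeing the data, Mmp9 rose in the heterozygotes by 0.65 on the log2 scale (1.57-fold, SE 0.15, 95% confidence interval 0.33 to 0.97, p 5.31e-04, adjusted p 0.0278). That fit called 397 of 16845 genes (2.36%). Neither Ache nor Mmp9 was called with edgeR at 5 months, where 839 of 16481 genes were (5.09%) and 3338 had an unadjusted p under 0.05, or at 2 months, where 0 of 16208 were (0%) and 836 had an unadjusted p under 0.05. DESeq2 called 641 genes at 5 months and 45 at 2 months. In spinal cord the interval for Mmp9 (-0.21 to 0.39) and in cortex that (-1.12 to 0.43) both spanned 0.

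Other genes of these roles were called in cerebellum at 5 months, where 5.09% of all genes were. Chrnb2, the most abundant nicotinic receptor subunit gene there, had 129, 118 and 118 CPM in the controls and 99.8, 111 and 98.5 CPM in the heterozygotes, and it fell by 0.23 on the log2 scale (adjusted p 0.0106). It was the 1 gene called among 6 nicotinic subunits tested, and none of 9 genes of acetylcholine handling or 4 muscarinic receptors was called. Vipr2, a peptide receptor gene in the list of motor neuron subtype and effector genes, had 37.4, 30.9 and 38.9 CPM in the controls and 20.1, 22.6 and 18.9 CPM in the heterozygotes, with no overlap, and it fell by 0.79. Spp1 of the same list rose by 0.32 (adjusted p 0.0128), so that 2 of 11 tested were called. Onecut2 fell by 0.84 (adjusted p 0.0117), as the 1 called of 5 motor neuron transcription factors tested, of which the other 4 were above 0 (median of the 5, 0.15). Atf3, an injury response factor, had 0.676, 0.699 and 0.807 CPM in the controls and 1.25, 1.55 and 2.48 CPM in the heterozygotes, and it rose by 1.29 (adjusted p 0.0243) as 1 of 8 tested. Without control 9, Chrnb2 (-0.25, 0.0268), Vipr2 (-0.88, 9.01e-06) and Onecut2 (-1.01, 0.00439) were called, and Spp1 (0.28, 0.0800) and Atf3 (1.26, 0.0862) were not. Calls were also lost without control 7 for Chrnb2 (0.0723), Onecut2 (0.0633) and Atf3 (0.0836), without control 11 for Onecut2 (0.0779) and Atf3 (0.0770), and without heterozygote 12 for Spp1 (0.0731) and Atf3 (0.182), with DESeq2 for Atf3 (0.101), and with all 12 libraries in 1 fit for Chrnb2 (0.161), Onecut2 (0.183), Spp1 (0.182) and Atf3 (0.0622). Over 11 alternatives the adjusted p ran from 2.08e-04 to 0.161 for Chrnb2, from 3.23e-19 to 0.00815 for Vipr2, from 7.41e-04 to 0.182 for Spp1, from 1.28e-04 to 0.183 for Onecut2 and from 0.00593 to 0.182 for Atf3. At 2 months, where 0 of 16208 genes were called, none of these lists had a call. Without control 1 at that age, edgeR called 167 genes higher and 195 lower. Of these lists, Vipr2 (-0.40, adjusted p 0.00874), Ret (0.40, 1.14e-04) and Esrrg (0.21, 0.00153) were then called. In the fit to both ages Chrnb2 (-0.24, adjusted p 0.0135) and Vipr2 (-0.53, adjusted p 0.0303) were called, and Atf3, Spp1 and Onecut2 were not.

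Microglia markers summed to 179, 182 and 180.2 CPM in the 5-month controls and 267, 229.8 and 297 CPM in the heterozygotes, and 8 of the 13 tested were called higher, Ctss, C1qc, Csf1r and Trem2 among them, where 5.09% of all genes were called in either direction. Without control 9, 8 of 14 tested were called. The call of Tyrobp was lost without control 7 (0.0950), control 11 (0.107) or heterozygote 12 (0.140) and with all 12 libraries in 1 fit (0.178; range over 11 alternatives 4.71e-04 to 0.178), and that of C1qb with all 12 libraries in 1 fit (0.0519; range 1.46e-10 to 0.0519). In the fit to both ages none of the 14 was called (median 0.40). At 2 months the sums were 212, 166 and 163 CPM in the controls and 185, 196 and 178 CPM in the heterozygotes, and none was called, as no gene was with edgeR at that age. In the spinal cords they summed to 516, 501 and 529 CPM and to 649.6, 776 and 730.0 CPM, with 6 of 14 called higher (C1qa, C1qb, C1qc, Ctss, Tyrobp and Trem2), against 0.108% of all genes called. In spinal cord none of the 14 was called without heterozygote 2 (median 0.50, against 0.65 with it), without heterozygote 3, without any 1 of the controls, without library 2 of both genotypes, with non-robust dispersions or with all 12 libraries in 1 fit. Over 13 alternatives the log2 fold changes of the 6 all stayed positive. They ran from 0.86 to 0.96 for Tyrobp, 0.73 to 0.96 for C1qa, 0.64 to 0.81 for C1qb and 0.64 to 0.83 for C1qc. Those of Trem2 ran from 0.63 to 0.80 and those of Ctss from 0.54 to 0.73. DESeq2 called 8 of the 14, and 9 were called without heterozygote 1. In cortex the sums went the other way, with a median log2 fold change of -0.31 and 0 of 14 above 0. None of the 14 was at 0 CPM, and their part in the Mmp9 result was not tested.

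**Figure D5:**
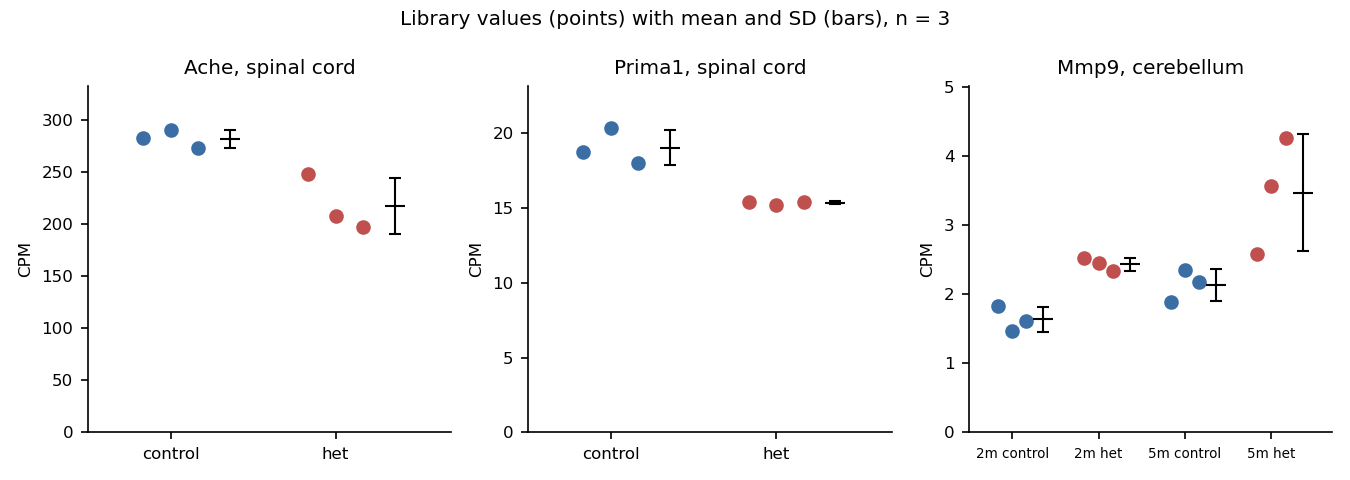
CPM of Ache and Prima1 in spinal cord and of Mmp9 in cerebellum at both ages, with a point for each library (blue, control; red, heterozygous) and bars for the mean and SD of 3. All 3 heterozygous spinal cords lie below the controls for Ache and Prima1, and all 6 heterozygous cerebella lie above the controls of their age for Mmp9.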

How the data were processed

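The deposited tables hold raw counts per gene, which the authors made, by the submitters' processing notes, with Trimmomatic 0.30, HISAT2 2.0.1 on mm10 and HTSeq 0.6.1. Neither the mode and strandedness of HTSeq nor the release of the Ensembl annotation is given in the sources used here. Genes were tested with edgeR 4.0.16 (quasi-likelihood, robust dispersions, TMM) in R 4.3.3, with filterByExpr (minimum count 10, minimum total 15), each tissue and age fitted apart, and the interaction in a fit to the 12 libraries of its table. P values were adjusted over all genes tested by Benjamini-Hochberg, and a call needed an adjusted p under 0.05 and, except for the interaction, a log2 fold change beyond 0.2. Tests are two-sided, and the SE is the size of the log2 fold change over the square root of F. CPM used TMM factors over the 12 libraries of each table, per kb of GENCODE M21 exon where stated, and likeness used log2(CPM + 1) in genes with a mean of 1 CPM or more in spinal cord. Alternatives were DESeq2 1.42.0, its size factors in edgeR, no filter, non-robust dispersions, all 12 libraries in 1 fit, a replicate block and leaving out each library. Leaving out library 2 of both spinal cord genotypes, and both cerebellum ages in 1 fit, were chosen after seeing the data. Named genes were the 8 members, the 5 genes most like Chat on each measure, and, of the marker and pathway lists, up to 5 genes called in a comparison and the most abundant gene of lists of other cells, some of which are not reported here. Members and lists were chosen with earlier results of these data known. Prima1, Bche, Penk, Isl2, Lhx3, Esrrb, Mrgprd, Adora2a, Tph2, Slc6a4, Chrnb3, Colq, Htr1d, Sox11, Gfap, Slc1a3, Tubb3, Ret, Esrrg, Chodl, Aldh1l1 and Cd68, and Atf3 in spinal cord, were picked from the lists after their values were seen. Code was tested on simulated data. Summaries and figures used scipy 1.17.1, pandas 2.3.3 and numpy 2.4.6 in Python 3.11.15, and promoters came from RefSeq on GRCm38.p6.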

Additional observations from a re-analysis of the deposited data

Results flagged for a closer look

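The genotype effect on Ctss, a microglia marker, differed between spinal cord and cortex by the interaction term, by 1.10 on the log2 scale (edgeR adjusted p 0.0322). All 14 microglia markers had a positive difference (median 1.02, beside 0.01 over all genes tested), and Ctss was the 1 called in the reported fit. DESeq2 also called C1qa, C1qb, C1qc, Cd68, Trem2 and Tyrobp, with adjusted p from 2.56e-04 to 0.0205. C1qb and Tyrobp were called in edgeR too with no filter and without control cortex 1, 2 or 3. Ctss was called in 8 of 16 alternatives, with an adjusted p from 2.15e-07 to 0.180. The call was lost with the replicate block (0.139) and without heterozygous cortex 2 (0.0847) or 3 (0.180), heterozygous spinal cord 2 (0.161) or 3 (0.107), or control spinal cord 1 (0.172), 2 (0.149) or 3 (0.121).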

How the results depend on the processing

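Of the alternative values, 406 kept their direction and side of the threshold, 24 passed it where the reported value had not, and 22, all of uncalled genes, changed sign. The number of genes called in spinal cord (19) was 0 with all 12 libraries in 1 fit, with non-robust dispersions and without number 2 in both groups, 73 with DESeq2 and 244 with no filter. Leaving out 1 library gave 0 (heterozygote 2, heterozygote 3, control 1 or control 2) to 643 (heterozygote 1), and 1 without control 3. In cortex (6) it was 104 with all 12 libraries, 135 with DESeq2, 108 with no filter and 0 (heterozygote 2 or 3) to 134 (control 1) with 1 library left out, and 39 without control 3. In cerebellum at 5 months (839) it was 225 with all 12 libraries, 397 with both ages and 433 (control 11) to 1022 (heterozygote 8), with 550 without heterozygote 12. At 2 months (0) it was 47 with all 12 libraries, 45 with DESeq2, 26 with no filter, 397 with both ages and 0 to 362 (control 1). Between control tissues (7200) it was 5424 to 9236 with 1 library left out. For the interaction (3) it was 49 with DESeq2, 20 with no filter and 0 (heterozygous cortex 3, heterozygous spinal cord 2, control spinal cord 2 or 3) to 31 (control cortex 3), with 18 without control cortex 1, 16 without heterozygous spinal cord 1, 11 without control cortex 2 and 1 without heterozygous cortex 2 or control spinal cord 1. The cause was not tested. With the replicate block 43 genes were called in spinal cord, 8 in cortex, 6105 between tissues and 0 for the interaction, and Slc5a7 in spinal cord was 0.00 with the opposite sign. Replicate numbers were not taken to pair the samples. The correlations of same-number deviations were -0.0428, 0.171 and -0.0494 in spinal cord and -0.171, -0.0592 and 0.0327 in cortex. Between spinal cord and cortex they were -0.156, -0.0456 and -0.0314 in controls and 0.0514, 0.0479 and 0.0506 in heterozygotes. Different-number values between the heterozygous tissues were lower, from -0.0603 to 0.0118, and whether numbers match across tissues was not settled.

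Signs also turned without number 2 in both spinal cord groups for Chat (0.05), Slc5a7 (0.01) and Mmp9 (-0.07), and for Ache in cortex with no filter (-0.01) or all 12 libraries (0.00) and in cerebellum at 2 months with both ages (-0.02). With 1 library left out, the spinal cord log2 fold changes ran from -0.14 to 0.03 (Chat), -0.05 to 0.06 (Slc5a7), -0.14 to 0.63 (Isl1), -0.43 to 0.04 (Prph) and -0.10 to 0.22 (Mmp9). Ache ran from -0.04 to 0.05 in cortex and -0.01 to 0.06 in cerebellum at 2 months, and the Mnx1 interaction from -2.23 to 1.76.

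With 3 libraries per group, and 1 to 93 counts per library for Chat, Slc18a3, Slc5a7 and Isl1 in cortex, depth limits those fold changes. A fit that leaves out 1 library rests on 2 in that group. In cerebellum 6 of the 8 genes did not pass the filter on low counts. With no filter none of those tested was called (lowest adjusted p 0.503 with edgeR, for Chat at 5 months).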

Other observations

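Fev, a transcription factor of serotonin neurons, was the one gene of the marker and pathway lists called in cortex with edgeR. It had 0.175, 0.101 and 0.0993 CPM in the controls and 2.08, 2.35 and 2.14 CPM in the heterozygotes, a log2 fold change of 4.10 (95% confidence interval 3.22 to 4.99, adjusted p 0.00680), higher in 3 of 3 heterozygotes. It was called in 10 of 12 alternatives (adjusted p 8.83e-07 to 0.117), and not without heterozygote 2 (0.0929) or heterozygote 3 (0.117). Brainstem monoamine neuron markers, of which 3 of 7 were tested, summed to 4.20, 2.71 and 3.38 CPM in the controls and 6.14, 6.66 and 6.48 CPM in the heterozygotes, with Th the most abundant. The sum includes Fev, and without it the sums were 4.02, 2.61 and 3.28 CPM in the controls and 4.06, 4.31 and 4.34 CPM in the heterozygotes. The other serotonin neuron genes of the list were not higher, with 1.57, 1.01 and 1.09 CPM of Tph2 in the controls and 0.789, 1.01 and 0.521 CPM in the heterozygotes, and at most 0.101 CPM of Slc6a4 in any cortex library. Of the 3 tested, 2 were higher without overlap, Fev and Th. Th had 1.87, 1.11 and 1.99 CPM in the controls and 2.82, 2.58 and 3.12 CPM in the heterozygotes, and it was not called.

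In cerebellum at 5 months edgeR called 5.09% of all genes tested. The pan-neuronal genes Rbfox3 (-0.31, adjusted p 9.14e-04) and Snap25 (-0.23, adjusted p 0.00379) were called lower, as 2 of 7 tested. Of 5 spinal neuron genes tested, Slc6a5 was called lower (-0.28, adjusted p 0.00903) and Slc17a6 higher (0.37, adjusted p 0.00944). Of 7 striatal markers tested, Ppp1r1b (0.27, adjusted p 9.58e-04) and Rgs9 (0.89, adjusted p 0.00320) were called higher, and of 7 astrocyte markers Aqp4 was (0.23, adjusted p 0.00342). All 7 were called without control 9. Gfap, another astrocyte marker, was not called but differed more, with 125, 111 and 119 CPM in the controls and 263, 196 and 319 CPM in the heterozygotes (1.15, adjusted p 0.0653, called in 4 of 11 alternatives, 3.34e-06 to 0.211). Slc1a2 (-0.13) and Slc1a3 (-0.11) of that list were below 0 and not called. Calls were lost without control 11 for Aqp4 (0.0523) and Slc17a6 (0.0787), without control 7 for Slc6a5 (0.0532), and without heterozygote 12 for Snap25, whose log2 fold change was then -0.18. In a fit with all 12 libraries of the table, Aqp4 (0.0971), Ppp1r1b (0.263), Slc17a6 (0.0652), Slc6a5 (0.0708) and Snap25 (0.0669) were not called. The adjusted p over 11 alternatives ran from 7.09e-06 to 0.0971 for Aqp4, 5.64e-07 to 0.263 for Ppp1r1b, 0.00112 to 0.0787 for Slc17a6, 6.24e-04 to 0.0708 for Slc6a5 and 1.03e-06 to 0.0669 for Snap25.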
